A study of Arabidopsis thaliana with 6 samples.

Results

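The genes described here drive or restrain the plant cell cycle: 44 loci of Arabidopsis thaliana, chosen by locus identifier from the 33554 listed in each library. They are 8 B-type, 8 A-type and 10 D-type cyclins, 5 cyclin-dependent kinases (CDKs), 7 KRP inhibitors, the inhibitors SIM, SMR1 and SMR2, and the 3 CCS52 genes. All 44 were listed in every library, and 43 were measured, with at least 1 FPKM in 1 library or more. FPKM are fragments scaled by transcript length and by the mapped fragments of the library, so levels may be compared between genes. The guard-cell-lineage cyclin CYCD7;1 (AT5G02110) was the exception, at 0 FPKM in 4 libraries and at most 0.0291 in the others.

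RNA sequencing was done on cells sorted by green fluorescence from root meristems of seedlings 6 days old, grown on sucrose medium under long days. Every library came from a reporter line and none from an unmarked or treated control. Epidermis was sorted from ProWER:GFP, cortex from ProAT1G09750:GFP, endodermis from ProSCR:GFP line1 and ProSCR:GFP line2, stele (the central vascular cylinder) from ProWOL:GFP and columella root cap (the root tip) from the PET111 enhancer trap line. The 5 cell types thus have 6 libraries, and only endodermis has 2. Apart from endodermis each value is a single library with no replicate check, and the labels do not say whether the endodermis lines also differ in culture or day.

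Cyclins bind CDKs and set when the kinases act. D-type cyclins with CDKA start the cycle in response to growth signals, A-type cyclins act from S phase onward, and B-type cyclins with the plant-specific CDKB kinases drive entry into mitosis. KRP and SIM/SMR proteins bind and inhibit cyclin-CDK complexes. CCS52 proteins activate the anaphase-promoting complex, which marks mitotic cyclins for breakdown. In roots, cells divide in the meristem and then leave mitosis, often copying their DNA further without dividing (endoreduplication), a switch in which low mitotic CDK activity, SIM/SMR proteins and CCS52A take part.

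The summed FPKM of the libraries lay between 576322 and 642028, while read numbers are unknown. Judged from the lowest values, 1 read was worth between 0.966 and 1.59 times its value in endodermis line 1, cortex being the shallowest. Summed levels of defining markers were highest under their own label for epidermis (summed 202 FPKM of 5 markers against at most 52.1 elsewhere), cortex (45.4 of 2 markers against at most 10.8), endodermis, stele (400 of 5 markers against at most 64.0) and root cap (326 of 5 markers against at most 137, in epidermis). The epidermis, cortex, endodermis and stele lists include the gene whose promoter drove the sorting reporter (WER, AT1G09750, SCR and WOL). These sums are therefore not a wholly independent check of the labels. Single markers departed from this order, since CPC of the epidermis list was highest in endodermis line 1 and BRN2 of the root cap list in epidermis. AT1G62500, the only cortex marker besides the reporter gene, was highest in endodermis line 2. In endodermis the 4 markers summed to 3313 FPKM in line 1 and 349 in line 2, against at most 49.1 elsewhere. 5 xylem markers summed to 801 FPKM in columella root cap, against 250 in stele and at most 130 in the other libraries. The root hair markers EXPA7, RSL4 and PRP3 summed to 704 FPKM in epidermis, against at most 21.2 elsewhere. What part these differences have in the results below was not tested.

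Most of the B-type cyclins share a promoter feature that is known to act in mitotic genes. Mitosis-specific activator (MSA) elements, bound by MYB3R factors, hold the core AACGG. In the 250 bases before the annotated gene start (RefSeq, TAIR10.1), at least 2 such cores on either strand stood in 6 of 8 B-type cyclins, against 3.62% of 27443 protein-coding promoters, and the 2 without any were CYCB1;4 and CYCB2;4. The requirement of a C or T before the core (CAACGG or TAACGG) left the same 6 genes with at least 2, against 1.26% of all promoters. The sequences below show how the cores lie in 4 of these promoters, and in KRP1 and KRP2, inhibitor genes with 6 and 2 cores whose levels ran unlike those of the cyclins. They are written 5′ to 3′ towards the gene, with each AACGG or its reverse complement CCGTT in capitals.
CYCB1;1: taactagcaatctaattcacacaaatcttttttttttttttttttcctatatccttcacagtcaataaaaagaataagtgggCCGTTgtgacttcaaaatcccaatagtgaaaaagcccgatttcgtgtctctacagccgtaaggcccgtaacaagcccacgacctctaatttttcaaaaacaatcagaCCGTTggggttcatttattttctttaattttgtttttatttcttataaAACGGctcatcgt
CYCB1;2: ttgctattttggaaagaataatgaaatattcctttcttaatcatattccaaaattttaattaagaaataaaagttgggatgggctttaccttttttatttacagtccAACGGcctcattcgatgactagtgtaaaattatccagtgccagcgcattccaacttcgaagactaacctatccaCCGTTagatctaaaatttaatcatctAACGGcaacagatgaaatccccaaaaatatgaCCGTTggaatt
CYCB2;1: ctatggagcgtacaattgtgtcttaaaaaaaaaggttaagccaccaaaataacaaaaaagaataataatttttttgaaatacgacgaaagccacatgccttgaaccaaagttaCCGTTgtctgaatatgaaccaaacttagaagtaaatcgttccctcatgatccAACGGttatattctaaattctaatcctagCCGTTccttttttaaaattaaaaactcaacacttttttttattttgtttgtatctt
CYCB2;2: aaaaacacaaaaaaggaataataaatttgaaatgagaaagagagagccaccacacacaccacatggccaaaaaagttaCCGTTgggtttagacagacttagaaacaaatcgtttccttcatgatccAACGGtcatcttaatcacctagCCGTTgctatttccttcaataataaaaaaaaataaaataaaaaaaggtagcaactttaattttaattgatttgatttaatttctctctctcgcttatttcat
KRP1: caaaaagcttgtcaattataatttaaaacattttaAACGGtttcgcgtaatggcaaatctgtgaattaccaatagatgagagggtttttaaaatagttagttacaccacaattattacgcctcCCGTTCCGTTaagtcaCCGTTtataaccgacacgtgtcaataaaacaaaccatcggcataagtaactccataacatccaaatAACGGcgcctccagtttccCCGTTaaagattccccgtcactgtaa
KRP2: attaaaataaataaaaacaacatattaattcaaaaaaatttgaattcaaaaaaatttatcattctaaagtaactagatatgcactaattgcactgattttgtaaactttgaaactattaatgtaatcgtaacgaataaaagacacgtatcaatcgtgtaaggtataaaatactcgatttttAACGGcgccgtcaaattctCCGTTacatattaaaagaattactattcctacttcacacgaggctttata

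In TAIR10.1 the window of CYCB1;1 is chr4:17624309-17624558, that of CYCB1;2 chr5:1861704-1861953 and that of KRP1 chr2:9978091-9978340, all on the minus strand. The window of CYCB2;1 is chr2:7663805-7664054, that of CYCB2;2 chr4:16901346-16901595 and that of KRP2 chr3:18800056-18800305, all on the plus strand. The deposited values carry no coordinates. None of the windows overlaps an annotated neighbouring gene. Across the other classes 2 or more cores were found in 3 of 8 A-type cyclins, 0 of 10 D-type cyclins, 0 of 5 CDKs, 3 of 7 KRP genes, 0 of 3 SIM/SMR genes and 0 of 3 CCS52 genes. With a C or T required before the core, 1 of 8 A-type cyclins and 2 of 7 KRP genes still held 2 or more. The E2F-type sites TTTCCCGC and TTTGGCGC, searched on both strands, were in 1 of the 44 promoters, that of CYCD3;3, against 0.958% of all promoters. That promoter held no AACGG core, so the motifs did not overlap there. A match is only a match of letters in this window, and a gene without one may carry the site elsewhere.

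**Figure D1:**
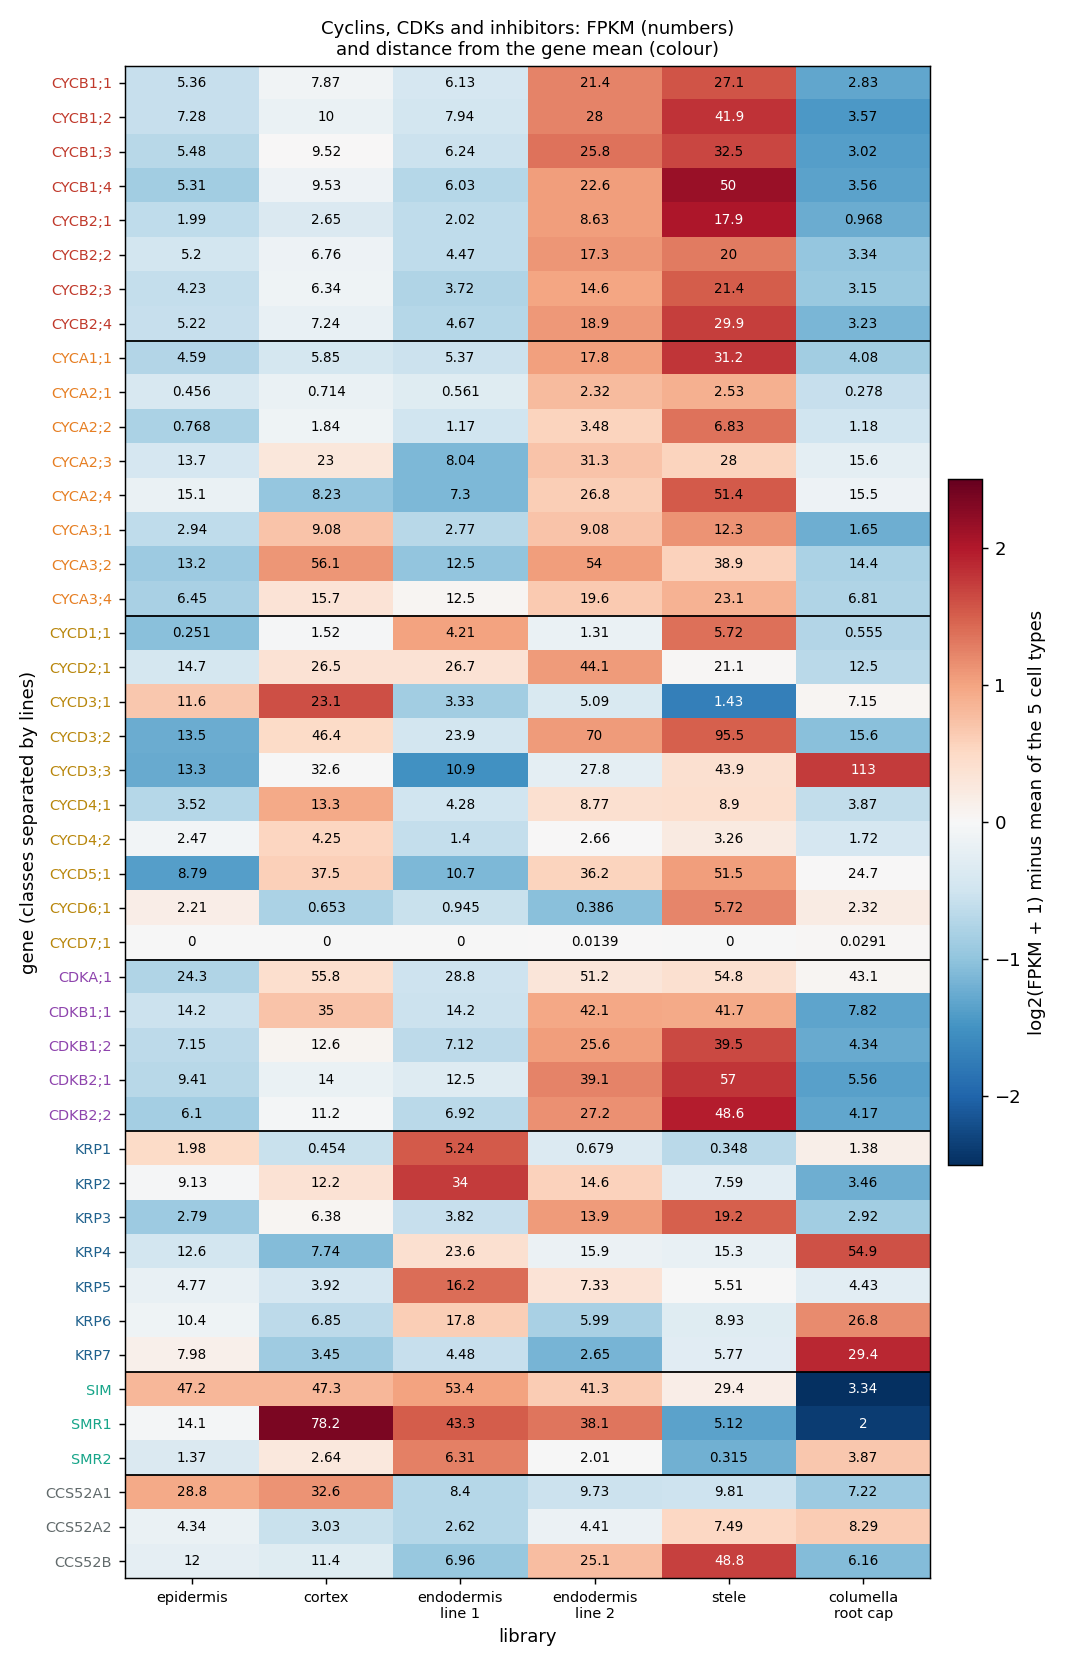
The 44 genes (rows, in classes separated by lines) in the 6 libraries (columns): numbers are FPKM, and colour is log2(FPKM + 1) minus the mean of the 5 cell types. B-type cyclins and CDKB genes are red in endodermis line 2 and stele and blue in columella root cap, while KRP1, KRP2 and KRP5 are red in endodermis line 1 and KRP4, KRP6 and KRP7 in columella root cap.

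The B-type cyclins, which drive entry into mitosis, gave the most uniform pattern of all classes. CYCB1;1 (AT4G37490), the gene behind the usual mitotic reporter, was at 5.36 FPKM in epidermis, 7.87 in cortex, 6.13 and 21.4 in endodermis lines 1 and 2, 27.1 in stele and 2.83 in columella root cap. CYCB1;2 (AT5G06150) was at 7.28 FPKM in epidermis, 10.02 in cortex, 7.94 and 28.03 in endodermis lines 1 and 2, 41.9 in stele and 3.57 in columella root cap. In both, stele and endodermis line 2 stood above a group of 3 low libraries, and the columella root cap stood lowest.

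The other 6 B-type genes had the same top and bottom. CYCB1;4 (AT2G26760) reached the highest level of the class, 49.97 FPKM in stele, with 22.6 in endodermis line 2 and 3.56 in columella root cap. CYCB2;1 (AT2G17620) was the scarcest, with 17.9 FPKM in stele, 8.63 in endodermis line 2 and 0.968 in columella root cap, and its 18.5-fold ratio of stele to columella root cap was the widest. Stele values were at most 32.5 FPKM for CYCB1;3 (AT3G11520), CYCB2;2 (AT4G35620), CYCB2;3 (AT1G20610) and CYCB2;4 (AT1G76310), and their columella root cap values between 3.02 and 3.34. All 8 B-type cyclins were 2-fold higher in stele than in columella root cap, with plain FPKM ratios of at least 5.98. Of the 19671 measured loci, 20.9% were 2-fold higher in stele and 22.0% in columella root cap. Between stele and endodermis line 2 the gap was small, and 1 of the 12 B-type cyclins and CDKB genes was 2-fold higher in stele, against 5.31% of loci. These 2-fold counts were made on the log2(FPKM + 1) scale.

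CDKB kinases, whose levels peak from late S phase to mitosis, ran with the B-type cyclins. CDKB2;1 (AT1G76540) was at 9.41 FPKM in epidermis, 14.0 in cortex, 12.5 and 39.1 in endodermis lines 1 and 2, 57.03 in stele and 5.56 in columella root cap. CDKB2;2 (AT1G20930) and CDKB1;2 (AT2G38620) were at 48.6 and 39.5 FPKM in stele and at 4.17 and 4.34 in columella root cap. Exons of CDKB1;2 overlap AT2G38630 on the opposite strand for 18.3% of their bases (RefSeq). That gene was at 12.6 FPKM in stele and 4.40 in columella root cap. CDKB1;1 (AT3G54180), which acts with A2-type cyclins against endoreduplication, was at 42.1 FPKM in endodermis line 2 and 41.7 in stele, and at 35.03 in cortex, nearer to these than any other CDKB gene.

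As a group of 12 genes, the B-type cyclins and CDKB kinases shared their upper libraries and their lowest. Stele and endodermis line 2 were the top libraries in 12 of 12, against 22.9% of all measured loci, with cortex next in all 12, against 16.7%. Stele was the highest library in 11 of 12 (28.6% of all loci) and columella root cap the lowest in 12 of 12 (16.6%). Their median was 36.0 FPKM in stele, 24.1 in endodermis line 2, 9.52 in cortex, 6.18 in endodermis line 1, 5.42 in epidermis and 3.45 in columella root cap. Cortex, endodermis line 1 and epidermis lay closer to each other than the endodermis lines did, so their order has no support from the only replicate spread in the data. The same holds for the median of stele against endodermis line 2, and for that of columella root cap against cortex, endodermis line 1 and epidermis. That spread therefore does not support the highest or the lowest rank either. In sorted pools, fewer dividing cells and less transcript per cell cannot be told apart. Genes of one phase share their cells and are not independent replicates of the pattern.

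**Figure D2:**
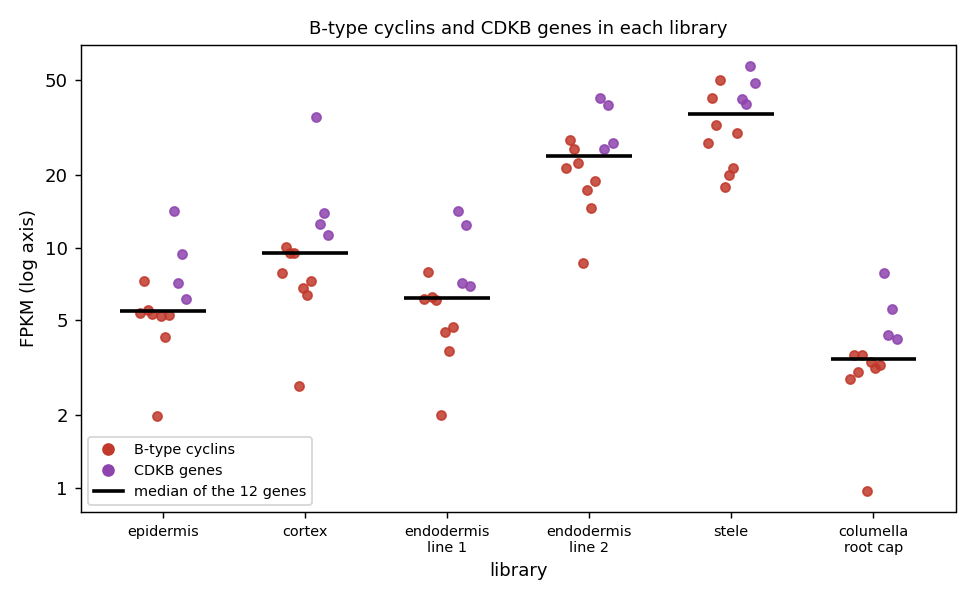
FPKM (log axis) of the 8 B-type cyclins and 4 CDKB genes in each of the 6 libraries, 1 point per gene, with the median of the 12 genes as a bar. The bar is highest in stele at 36.0 FPKM and lowest in columella root cap at 3.45, and endodermis line 2, at 24.1, stands above line 1, at 6.18.

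CDKA;1 (AT3G48750), the main CDK of the whole cycle, was the flattest kinase. It was at 24.3 FPKM in epidermis, 55.8 in cortex, 28.8 and 51.2 in endodermis lines 1 and 2, 54.8 in stele and 43.1 in columella root cap. Its highest library stood 2.30-fold above its lowest, against 5.39-fold to 11.7-fold for the CDKB genes, and columella root cap was inside the range of the others.

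A-type cyclins varied more than B-type cyclins in which library was lowest. CYCA1;1 (AT1G44110), a mitotic A-type cyclin, followed the B-type order, with 31.2 FPKM in stele, 17.8 in endodermis line 2 and 4.08 to 5.85 in the other 4 libraries. CYCA2;1 (AT5G25380) and CYCA2;2 (AT5G11300) were scarce, at most 2.53 and 6.83 FPKM, both in stele. CYCA2;3 (AT1G15570), which restrains endoreduplication with CDKB1, was at 13.7 FPKM in epidermis, 23.01 in cortex, 8.04 and 31.3 in endodermis lines 1 and 2, 28.0 in stele and 15.6 in columella root cap. CYCA2;4 (AT1G80370) was at 51.4 FPKM in stele, 26.8 in endodermis line 2 and 15.5 in columella root cap. For both of these genes endodermis line 1 was the lowest library, and columella root cap stood inside the range of the others.

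A3-type cyclins, which are linked to S phase, did not share a highest library. CYCA3;2 (AT1G47210) was at 56.08 FPKM in cortex and 54.0 in endodermis line 2, above its 38.9 in stele, and at 12.5 to 14.4 in epidermis, endodermis line 1 and columella root cap. CYCA3;1 (AT5G43080) and CYCA3;4 (AT1G47230) were highest in stele, at 12.3 and 23.1 FPKM. Over all 8 A-type cyclins the median stele level stood 1.25 above the average of the remaining 4 cell types (log2(FPKM + 1) scale), against 2.12 for B-type cyclins and 0.058 for all loci. The columella root cap median was -0.83, against -1.59 for B-type cyclins and -0.048 for all loci.

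D-type cyclins, the growth-responsive class, had no common library. CYCD3;3 (AT3G50070) was at 13.3 FPKM in epidermis, 32.6 in cortex, 10.9 and 27.8 in endodermis lines 1 and 2, 43.9 in stele and 113 in columella root cap. Among the 26 member cyclins it alone was enriched in columella root cap, meaning 5 FPKM or more and a 2-fold lead, on the log2(FPKM + 1) scale, over each library from a different cell type, a call given to 5.44% of loci there. CYCD3;1 (AT4G34160), a target of cytokinin, was at 23.1 FPKM in cortex, 11.6 in epidermis, 7.15 in columella root cap, 3.33 and 5.09 in endodermis lines 1 and 2 and 1.43 in stele. CYCD3;2 (AT5G67260) was at 95.5 FPKM in stele, 70.00 in endodermis line 2, 46.4 in cortex, 23.9 in endodermis line 1, 15.6 in columella root cap and 13.5 in epidermis. The 3 D3-type genes peaked in 3 different libraries.

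Of the remaining D-type genes, CYCD6;1 (AT4G03270), which SHR and SCR switch on for formative divisions of the ground tissue, was at 5.72 FPKM in stele, 2.32 in columella root cap, 2.21 in epidermis and under 1 in cortex and both endodermis lines. It passed the rule in stele, where 1.55% of loci did, with a level just over the minimum. In the RefSeq annotation 24.4% of its exon bases overlap AT4G03260, which was at 11.1 to 26.3 FPKM, and the strand setting of the counting is not known, so reads of the pair may not have been told apart. CYCD2;1 (AT2G22490) was highest in the endodermis lines, at 26.7 and 44.1 FPKM, a mean of 35.4 ± 12.4 (SD, n = 2), against 12.5 to 26.5 elsewhere. CYCD4;1 (AT5G65420) and CYCD4;2 (AT5G10440) were highest in cortex, at 13.3 and 4.25 FPKM. CYCD5;1 (AT4G37630) was at 51.5 FPKM in stele, 37.5 in cortex and 8.79 in epidermis. CYCD1;1 (AT1G70210) was at 5.72 FPKM in stele and, alone among cyclins and CDKs, past 2-fold higher in endodermis line 1 (4.21) than in line 2 (1.31).

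Of the 7 KRP inhibitors, 3 were highest in endodermis line 1, 3 in columella root cap and 1 in stele. None was highest in epidermis or cortex, where mitotic genes were also low. Of the 19671 measured loci, 4562 were highest in columella root cap, 4195 in an endodermis line and 5623 in stele. KRP2 (AT3G50630), which restrains the first divisions of lateral roots, was at 9.13 FPKM in epidermis, 12.2 in cortex, 34.0 and 14.6 in endodermis lines 1 and 2, 7.59 in stele and 3.46 in columella root cap. KRP1 (AT2G23430) and KRP5 (AT3G24810) also peaked in endodermis line 1, at 5.24 and 16.2 FPKM, with 0.679 and 7.33 in line 2 and at most 1.98 and 5.51 in other cell types. None of the 3 was enriched in endodermis, since both lines had to pass.

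The columella root cap held the highest levels of the remaining inhibitors of this family but for KRP3. KRP7 (AT1G49620), which is removed by the F-box protein FBL17 in the male germ line, was at 29.4 FPKM there, against 7.98 in epidermis, 3.45 in cortex, 4.48 and 2.65 in endodermis lines 1 and 2 and 5.77 in stele. KRP4 (AT2G32710), reported to tie cell size to division in the shoot meristem, was at 54.9 FPKM there and at 7.74 to 23.6 elsewhere. Both were enriched. In the RefSeq annotation 38.7% of the exon bases of KRP4 overlap AT2G32720 on the opposite strand, a gene that was at 28.0 FPKM in columella root cap and reached 204 in endodermis line 1. KRP6 (AT3G19150) was at 26.8 FPKM in columella root cap and 17.8 in endodermis line 1, a margin under 2-fold.

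KRP3 (AT5G48820) ran with the mitotic genes. It was at 2.79 FPKM in epidermis, 6.38 in cortex, 3.82 and 13.9 in endodermis lines 1 and 2, 19.2 in stele and 2.92 in columella root cap. It was the only 1 of 10 KRP, SIM and SMR genes with stele highest, and also the only 1 higher in endodermis line 2 than in line 1. Its promoter window held 1 AACGG core.

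SIM and SMR1 were the members with the lowest columella root cap values relative to other libraries. SIM (AT5G04470), needed for endoreduplication in leaf hairs, was at 47.2 FPKM in epidermis, 47.3 in cortex, 53.4 and 41.3 in endodermis lines 1 and 2, 29.4 in stele and 3.34 in columella root cap. SMR1 (AT3G10525, also LGO), needed for giant cells of the sepal, was at 14.1 FPKM in epidermis, 78.2 in cortex, 43.3 and 38.1 in endodermis lines 1 and 2, 5.12 in stele and 2.001 in columella root cap. These were the only members depleted anywhere, which needs a 2-fold deficit against each library from a different cell type, all at 5 FPKM or more, a call given to 1.11% of loci in columella root cap. SIM stayed at 29.4 to 53.4 FPKM over the other 5 libraries, whereas SMR1 spread from 5.12 to 78.2. SMR2 (AT1G08180) was low throughout, at 6.31 FPKM in endodermis line 1, 3.87 in columella root cap and 0.315 in stele. The exons of SIM and SMR1 overlap RefSeq loci (AT5G04475 and AT3G10527) for 31.4% and 40.3% of their bases. Neither locus has a value in any library, and whether its reads were counted to SIM or SMR1 is not known.

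CCS52 genes each had a pattern of their own. CCS52A1 (AT4G22910), which promotes the onset of endoreduplication, was at 28.8 FPKM in epidermis and 32.6 in cortex, against 8.40 and 9.73 in endodermis lines 1 and 2, 9.81 in stele and 7.22 in columella root cap. CCS52A2 (AT4G11920), which maintains the stem cell niche of the root, was at 8.29 FPKM in columella root cap and 7.49 in stele, and at 2.62 to 4.41 elsewhere. CCS52B (AT5G13840), known from dividing cells, was at 12.03 FPKM in epidermis, 11.4 in cortex, 6.96 and 25.05 in endodermis lines 1 and 2, 48.8 in stele and 6.16 in columella root cap. CCS52B thus had the same top and bottom libraries as the B-type cyclins, and CCS52A1 did not. Exons of CCS52B overlap the RefSeq locus AT5G02105 for 19.5% of their bases, and that locus has no value in any library.

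**Figure D3:**
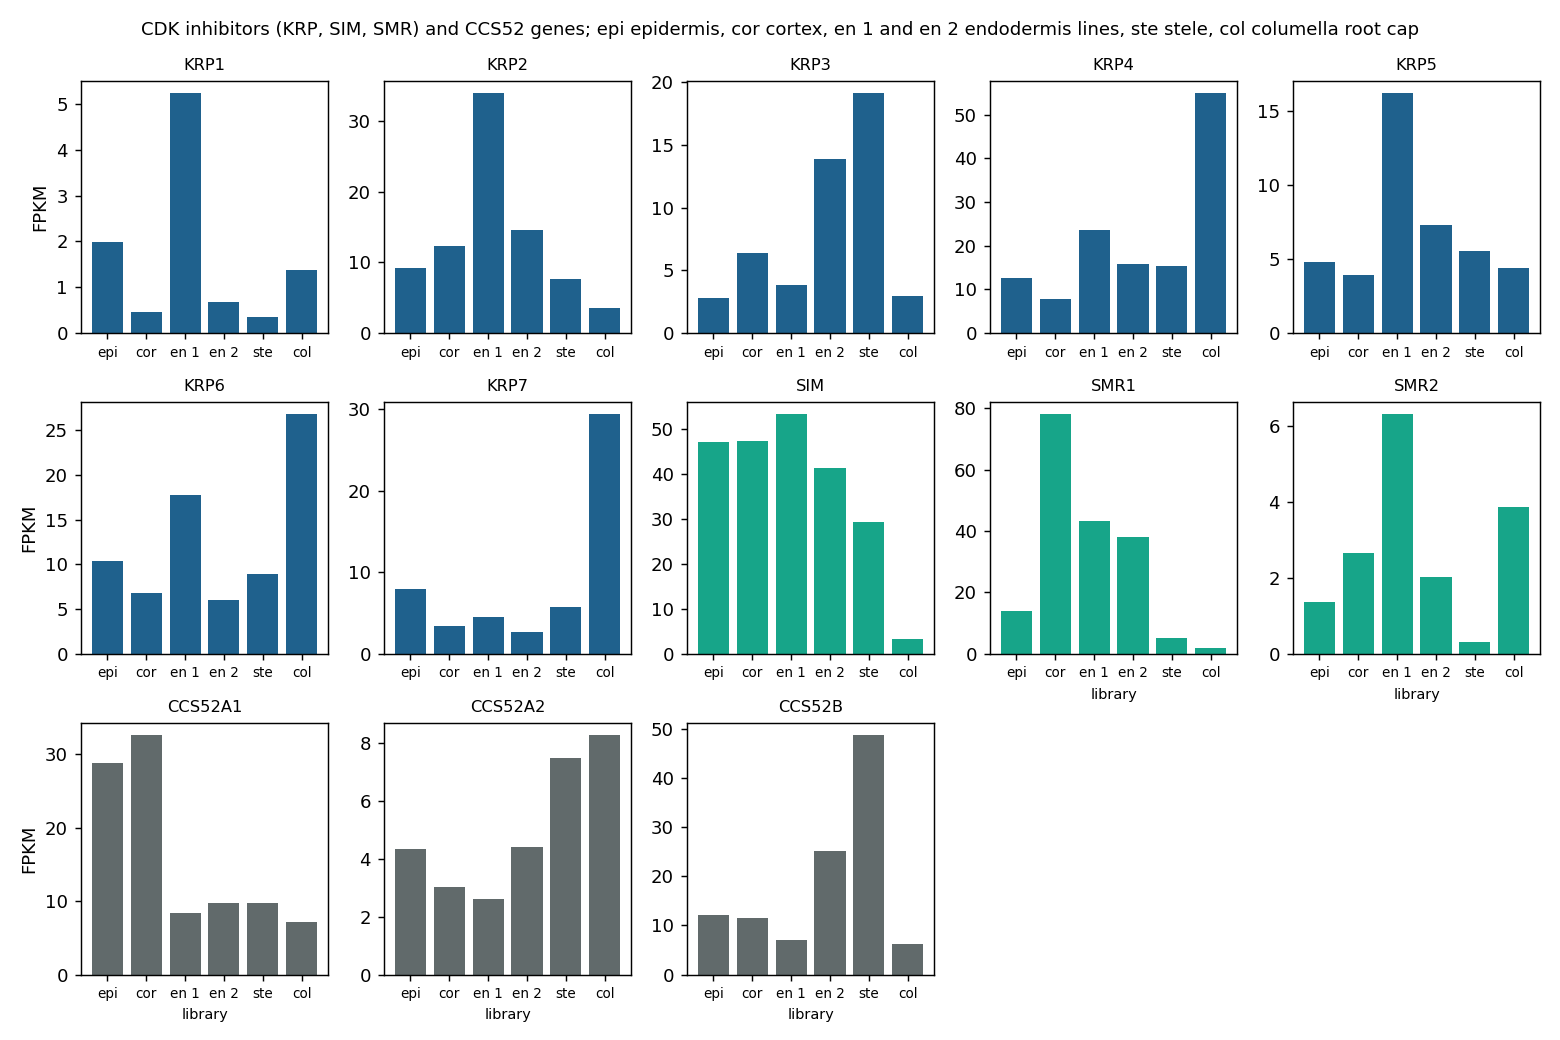
FPKM of the 10 CDK inhibitors and 3 CCS52 genes in each of the 6 libraries, 1 bar per library (endodermis lines apart), each panel with its own axis from 0. KRP1, KRP2 and KRP5 are highest in endodermis line 1, KRP4, KRP6 and KRP7 in columella root cap, SMR1 in cortex, CCS52A1 in cortex and epidermis, and KRP3 and CCS52B in stele.

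Activators were then set against inhibitors by layer. The 31 cyclins and CDKs summed to 914 FPKM in stele, 703 in endodermis line 2, 495 in cortex, 330 in columella root cap, 247 in endodermis line 1 and 229 in epidermis. The 10 KRP, SIM and SMR genes summed to 97.4 FPKM in stele, 142 in endodermis line 2, 169 in cortex, 133 in columella root cap, 208 in endodermis line 1 and 112 in epidermis. Activator sums thus exceeded inhibitor sums 9.38-fold in stele, 4.94-fold in endodermis line 2, 2.92-fold in cortex, 2.49-fold in columella root cap, 2.04-fold in epidermis and 1.19-fold in endodermis line 1. The endodermis lines alone spanned 1.19 to 4.94, which is as wide as the distance among all libraries other than stele. These ratios hold for the member lists only, since 11 further SMR genes are not in the inhibitor sums. Those 11 summed to 217 FPKM in columella root cap, 57.6 in endodermis line 1 and 45.8 to 73.3 in the other libraries. With them counted, inhibitors would exceed activators in columella root cap and endodermis line 1.

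The makeup of the inhibitors differed more than their sum. SIM, SMR1 and SMR2 summed to 128 FPKM in cortex, 103 in endodermis line 1, 81.5 in line 2, 62.6 in epidermis, 34.8 in stele and 9.21 in columella root cap. The 7 KRP genes summed to 123 FPKM in columella root cap, 105 in endodermis line 1, and 41.03 to 62.6 in the other 4 libraries. Among these 10 genes SIM, SMR1 and SMR2 made up most of the sum in cortex and the KRP genes most of it in columella root cap. The 11 further SMR genes, which are not members, summed to 217 FPKM in columella root cap and 46.1 in cortex, so the low SIM, SMR1 and SMR2 sum in columella root cap does not hold for all SMR genes together. Among activators, D-type cyclins held 181 of 330 FPKM in columella root cap, most of it CYCD3;3, while mitotic activators (A- and B-type cyclins and CDKB genes) held 105 there and 622 in stele.

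**Figure D4:**
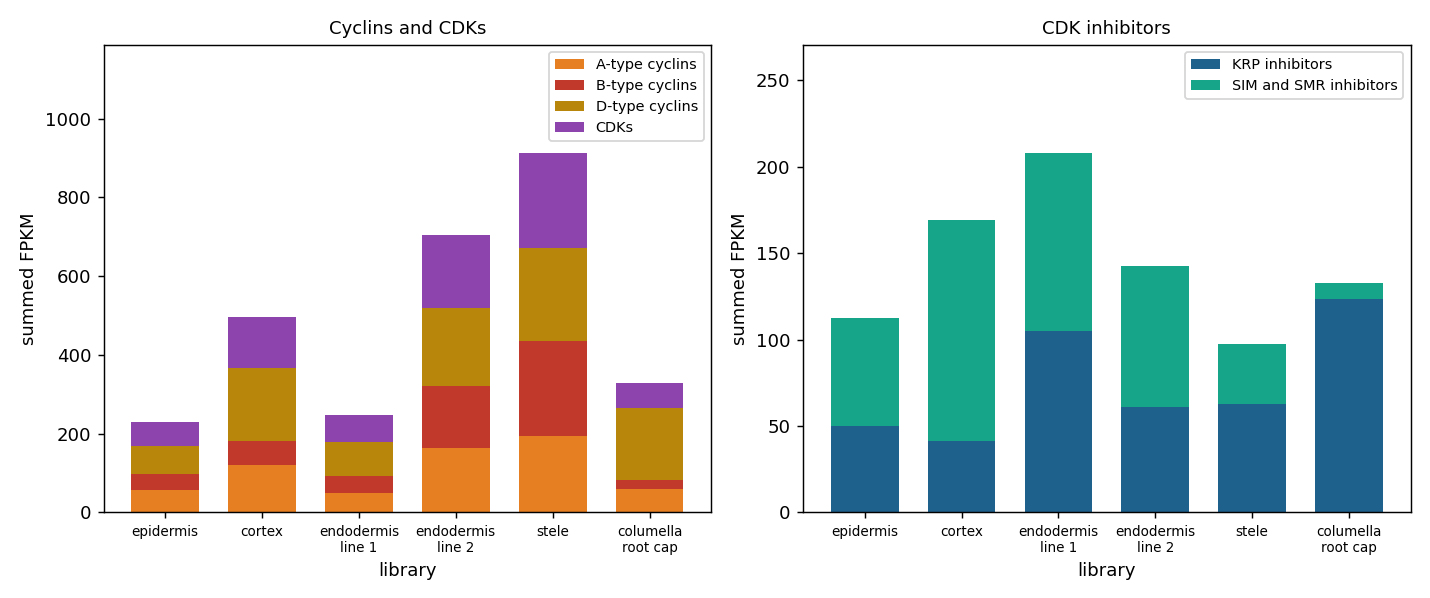
Summed FPKM of cyclins and CDKs by class (left) and of the 10 member CDK inhibitors by class (right) in each of the 6 libraries, bars stacked from 0 with separate axes. The left bars are tallest in stele at 914 FPKM and endodermis line 2 at 703, and the right bars in endodermis line 1 at 208, with the SIM, SMR1 and SMR2 part smallest in columella root cap (9.21).

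Sums follow the most abundant genes, so medians over genes were also taken, as log2(FPKM + 1) of a cell type less the average over the remaining 4. Over 30 measured activators the median was 1.67 in stele, 0.24 in endodermis, -0.033 in cortex, -0.81 in epidermis and -1.04 in columella root cap. Over the 10 inhibitors it was -0.34 in stele, 0.76 in endodermis, -0.23 in cortex, -0.096 in epidermis and -0.075 in columella root cap. Over all measured loci it was 0.058, -0.032, -0.0058, -0.39 and -0.048 in the same order, so part of the low epidermis value of activators is shared by all loci. The activator median minus the inhibitor median was 2.01 in stele, 0.20 in cortex, -0.53 in endodermis, -0.72 in epidermis and -0.96 in columella root cap. Taken line by line this was -1.89 for endodermis line 1 and 0.66 for line 2 (SD 1.80, n = 2), so the stele value differed from 0 by about this spread and the others by less.

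The endodermis lines, though of one cell type, differed widely in this contrast, with line 2 staying below stele. All 12 B-type cyclins and CDKB genes were 2.96-fold to 4.28-fold higher in line 2, as were 7 of 8 A-type cyclins past 2-fold. Over 30 measured activators 22 were 2-fold higher in line 2 and 1 in line 1, against 17.4% and 17.7% of all measured loci. Of the 10 inhibitors 1 (KRP3) was 2-fold higher in line 2 and 5 (KRP1, KRP2, KRP5, KRP6 and SMR2) in line 1. SIM and SMR1 differed by less, at 47.4 ± 8.54 and 40.7 ± 3.63 FPKM (SD, n = 2). CASP1 (AT2G36100), a scaffold of the Casparian strip made by differentiating endodermis, was at 2045 FPKM in line 1 and 85.2 in line 2, and MYB36 (AT5G57620), its regulator, at 377 and 70.5. SCR, the reporter gene, was at 59.7 and 147 FPKM. No p-value can be given for a difference between 2 single libraries.

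**Figure D5:**
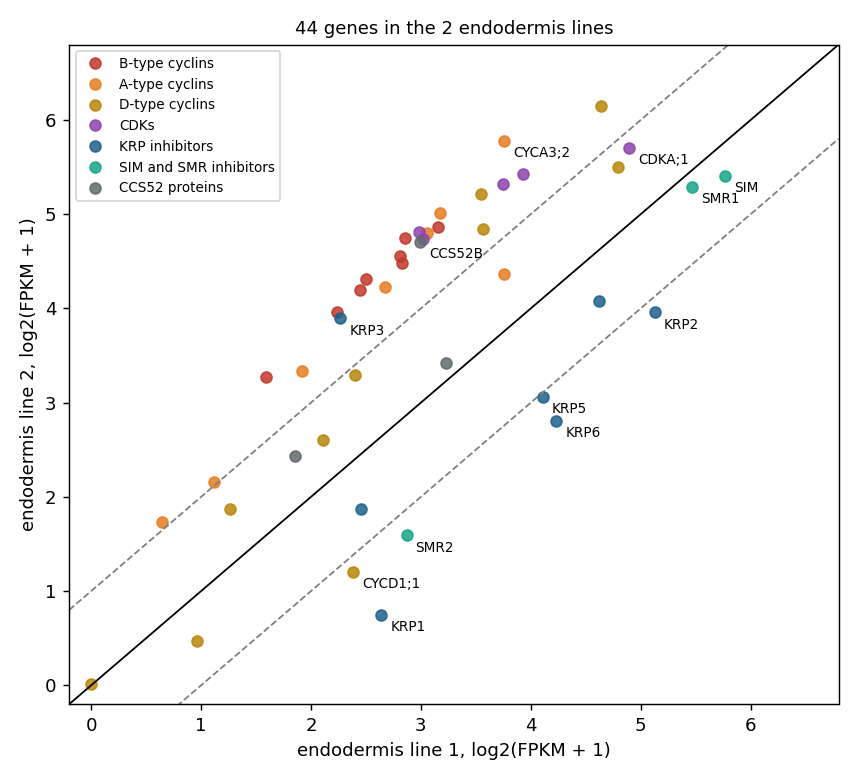
The 44 genes in endodermis line 1 (x axis) and line 2 (y axis), both as log2(FPKM + 1), 1 point per gene, coloured by class. The solid line marks equal levels and the dashed lines a 2-fold difference, and the B-type cyclins lie above the upper dashed line while KRP1, KRP2, KRP5, KRP6 and SMR2 lie below the lower one.

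By the rule of size 5 of the 43 measured members were enriched in some cell type, against 13.0% of all loci, and 2 were depleted, against 4.32%. The 5 were CYCB1;4 and CYCD6;1 in stele and CYCD3;3, KRP4 and KRP7 in columella root cap. No member was enriched or depleted in epidermis (4.46% and 0.966% of loci), cortex (0.824% and 0.0458%) or endodermis (0.681% and 0.00%), and none was depleted in stele (2.20%). Without endodermis line 2, 24 of 43 members were enriched, all 8 B-type cyclins in stele among them, against 21.9% of all loci at that setting. Without line 1 the count was 8, against 16.8% of loci, and without the columella root cap library it was 2, against 10.7%. In limma, which borrows the spread of the endodermis pair for all libraries, SIM and SMR1 were called lower in columella root cap, with log2 differences of -3.31 and -2.97 against the remaining cell types and Benjamini-Hochberg adjusted p of 0.00641 and 0.0295. Of all loci 0.336% were called lower there and 14.8% were called in any cell type, at an adjusted p of 0.05 and a 2-fold difference. Both calls were lost in limma without the trend, without the filter on low values and with size factors. Among the mitotic genes the smallest adjusted p in limma was 0.136, for CYCB1;4 in stele.

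Other genes of the cycle were read beside the members. Among 12 mitosis and cytokinesis genes, such as the cytokinesis syntaxin KNOLLE, stele was the highest library in 12 and columella root cap the lowest in 9, with a median stele difference of 1.99 on the log2(FPKM + 1) scale. Stele was also highest for 12 of 13 replication licensing genes (median 1.89), 10 of 12 genes of the anaphase-promoting complex and its regulators (1.23), and 7 of 9 RBR and E2F genes (0.68). Of all measured loci, 28.6% were highest in stele and 16.6% lowest in columella root cap. The 4 MYB3R genes, whose products bind MSA elements, had a stele median of 0.29, with 2 genes highest in stele and 2 in columella root cap. None of these 50 genes was enriched or depleted by the rule of size, against 13.0% and 4.32% of all loci. The licensing helicase MCM2 (AT1G44900) was at 45.5 FPKM in stele, 26.7 and 7.36 in endodermis lines 2 and 1, 18.5 in cortex, 9.47 in columella root cap and 5.93 in epidermis, so columella root cap stood above 2 libraries here and not at the bottom.

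Further inhibitors and cyclins outside the member list were found among the enriched genes. AT2G28870, annotated as an SMR1-like CDK inhibitor, was at 139 FPKM in columella root cap and at most 5.88 elsewhere. AT1G10690, annotated as a CDK inhibitor, was at 29.5 FPKM there, against 14.1 in epidermis and 2.06 to 7.42 elsewhere. AT5G02420, annotated as SMR3-like, was enriched in epidermis, at 36.1 FPKM against at most 15.7. CYCA1;2 (AT1G77390), known for its role in meiosis, was at 16.0 FPKM in columella root cap and at most 4.55 elsewhere. These were 3 of 11 further SMR genes and 1 of 2 measured further cyclins, beside 13.0% of all loci enriched in any cell type. None was depleted, beside 4.32% of all loci.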

How the data were processed

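RNA of sorted cells was sequenced as polyA+ libraries with the Illumina TruSeq RNA kit, per the labels' protocols. The deposited values are FPKM, 1 file per library, made by the authors. Per the submitters' processing notes, which give no roles or settings, Cufflinks 2.0.2, TopHat 1.3.1 and Bowtie 0.12.7 were used with build TAIR10. How reads were assigned to genes, by strand or when mapping to several places, is not stated there. Members and lists were chosen with earlier results of these data known, and all members are named. Values were compared as log2(FPKM + 1), which understates differences of low genes. Limma 3.58.1 (R 4.3.3, eBayes with trend) fitted all 19671 loci with 1 FPKM or more, with 1 residual degree of freedom. Its prior degrees of freedom were infinite, so the variance of each locus came from the trend alone and was treated as known. Where they were finite (9.15 without the trend, 1.22 without the filter on low values, 4.69 with size factors), no member was called. For the p-values of limma each unreplicated cell type is taken to vary as the endodermis lines do, and their spread may be technical. Names, promoters and exon overlaps came from RefSeq TAIR10.1, where all 44 members matched. The deposited rows carry no coordinates. No 50-base window was shared between members, and 12 shared windows with other genes. Exons of 14 members overlap another gene, in 4 of them (CYCD6;1, KRP4, SIM and SMR1) for over 20% of bases. Computations were tested on simulated data. An exact 0 can be a failed estimate.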

Additional observations from a re-analysis of the deposited data

How the results depend on the processing

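With size factors, scaling to equal sums (TPM) and quantile normalization, all 12 B-type cyclins and CDKB genes were highest in stele and lowest in columella root cap. Changes of pseudocount, margin or FPKM minimum cannot alter these ranks. When a library other than stele was left out, 11 or 12 were highest in stele, and 12 lowest in columella root cap wherever it was kept. Leaving out another library cannot unseat a highest or lowest library, so it is no test of the order. The count of 5 enriched members was 15 at a 1.5-fold and 0 at a 4-fold margin (23.9% and 5.35% of all loci), and 2 without the columella root cap library (chosen after seeing the data). The count of 2 depleted members was 10 at 1.5-fold (10.5% of loci), 1 at 4-fold (0.910%), 4 with a pseudocount of 0.1 (5.13%), 5 with size factors (4.32%), 4 with quantile normalization (4.30%) and 1 without the columella root cap library (5.51%). Leaving out an endodermis line gave between 8 and 24 enriched and between 2 and 5 depleted members (6.10% and 6.41% of loci), the 24 and the 2 without line 2. CYCD6;1 and SMR1 lost their calls with size factors and quantile normalization. The 2 limma calls became 0 without the trend, without the filter on low values and under size factors, with 19, 3 and 11 members then at an unadjusted p under 0.05 beside 4880, 6489 and 5057 loci, against 22 members and 6180 loci as reported. With either endodermis line left out limma has no residual degrees of freedom, so no test could be made. The activator median minus the inhibitor median moved by less than the spread of the endodermis lines, which is wide, under every alternative tried for it. For leaving out a line this is no test, since the spread comes from the same lines. In endodermis the value went from -0.53 to 0.66 without line 1, a change of sign, and to -1.89 without line 2. The SIM, SMR1 and SMR2 median in columella root cap went from -2.97 to -3.39 with a pseudocount of 0.1. Size factors moved the median of all loci by 0.31 in epidermis and -0.16 in stele, and quantile normalization by -0.12 in columella root cap. No paired analysis was possible because only endodermis has 2 libraries. Read depth is unknown, which leaves counting error without an interval.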
